A study of Mus musculus with 57 samples.

Results

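Glycolysis splits glucose into pyruvate in the cytosol. Hexokinase and phosphofructokinase commit sugar to the pathway and are its main points of control, the enzymes from aldolase to enolase rearrange and oxidise the cleaved sugar to yield ATP, and lactate dehydrogenase recycles pyruvate and NADH. Most steps are served by several isozymes from separate genes, whose use differs between tissues, and nephron progenitors are known to rely on glycolysis. The 10 genes described here are Hk1 and Hk2 (hexokinases), Pfkl and Pfkp (phosphofructokinases), Aldoa (aldolase), Tpi1 (triosephosphate isomerase), Pgk1 (phosphoglycerate kinase), Pgam1 (phosphoglycerate mutase), Eno1 (enolase) and Ldha (lactate dehydrogenase). They were chosen by symbol, and all 10 had a row among the 12087 genes of the deposited table.

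The table holds 57 single cells, each sequenced as its own library, from renal vesicles of postnatal day 4 Tg(Crym-EGFP)82Gsat mice of mixed background. In this line EGFP follows the regulatory sequence of Crym. The renal vesicle is the first epithelial stage of the nephron. All cells came from 1 pool of 2 kidneys and form 1 group, so they are not replicates of a condition, and spread between them mixes biological and technical variation.

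Levels are in RPKM, a read count divided by gene length and by the mapped reads of the cell, and RPKM 1 or more counts as detection. Steps in the low values gave an estimated depth of 472621 to 2285914 reads per cell, with a median of 1470057. Detected genes per cell ran from 2809 to 6502, with a median of 4307. The labelled cell type was checked against markers. Of 10 early nephron markers with values, 6 were detected in at least 29 cells, beside 28.0% of all 12087 genes. Pax8 was detected in 52 cells and Jag1 in 56, but Fgf8 in 6, Pou3f3 in 14, and Pax2 and Wnt4 in 19 each. In 5 cells (numbers 1, 25, 35, 46 and 58) the macrophage gene C1qb reached RPKM 1000 or more. The summed RPKM of 10 macrophage markers was 8423 to 18580 in those 5 cells and 0 to 304 in the other 52, while that of the early nephron markers was 10.2 to 88.2 and 84.3 to 2605. Summed endothelium markers stayed at or under 73.1 RPKM and the erythroid marker Alas2 at or under 29.0. Of 5 stroma markers with values, Aldh1a2 alone passed 29 cells, being detected in 35, and it reached 1780 RPKM in cell 30. Meis2 was detected in 24 cells, Meis1 in 17, and Pdgfra and Pdgfrb in 3 each. Cell 53, with Pax8 at 0.437 RPKM, had the highest Meis1, Meis2, Pdgfra and Pdgfrb of all cells, at 369, 67.4, 365 and 370 RPKM. Aldh1a2 of the same list was at 0 there, but by its other markers the cell goes against the label. The 5 cells with high C1qb also do, and all 6 are among the 7 cells with Pax8 below RPKM 5. Values that moved without either set of cells are given beside the results.

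The sequences behind the levels matter for this pathway, because its abundant enzymes have processed copies in the mouse genome and short reads may be placed on either. A search of the GENCODE transcripts, pseudogenes included, found copies with at least 80% identity over at least 30% of the coding sequence for 6 members and none for Hk1, Hk2, Pfkl and Pfkp. Ldha had 26 such copies, Eno1 12, Aldoa 11, Tpi1 8, Pgk1 5 and Pgam1 5. Pgk1 had 2 copies, Gm5537 and Pgk1-rs7, without a mismatch over the aligned coding sequence, and Pgam1 had 1, Pgam1-ps2. Only 2 of all these copies had a row of their own in the table, and both copy Eno1. The closest is Gm4735 on chromosome 2, a pseudogene with 5 mismatches over 1302 coding bases, T726C, T816G, A1056G, T1224C and C1233T, counted from the A of the Eno1 start codon with the Eno1 base first. The stretch from base 1054 to base 1233, which holds the last 3 of them in capitals, shows how little a read has to go on.

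Eno1: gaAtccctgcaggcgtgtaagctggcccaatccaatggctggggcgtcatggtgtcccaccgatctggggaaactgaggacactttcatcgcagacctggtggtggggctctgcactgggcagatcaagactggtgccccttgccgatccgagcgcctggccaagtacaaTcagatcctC

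Gm4735: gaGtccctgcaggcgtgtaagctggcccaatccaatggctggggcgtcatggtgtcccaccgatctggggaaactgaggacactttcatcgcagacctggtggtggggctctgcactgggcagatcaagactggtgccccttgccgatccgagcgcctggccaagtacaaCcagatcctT

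The 4 hexokinase and phosphofructokinase genes were detected in few cells and the 6 later enzymes in most. At RPKM 1, Hk1, Hk2, Pfkl and Pfkp were each detected in 7 to 19 of 57 cells, whereas the 6 lower enzymes were each detected in 41 to 56. Thus 6 of 10 members were detected in at least 29 cells, beside 28.0% of all 12087 genes. The members' median was 42 detecting cells, against 16 for all genes. The 6 lower enzymes made up 96.3% of the summed mean RPKM of the 10 genes. A single cell had 3 to 9 members detected, with a median of 6, and no cell had all 10. All 6 lower enzymes were detected together in 22 cells and 5 of the 6 in another 27, while 24 cells had none of Hk1, Hk2, Pfkl and Pfkp. The number of members detected moved with the number of genes detected per cell (Spearman rho 0.62 over 57 cells, both counted from the same libraries), and the part of depth in it was not tested.

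**Figure D1:**
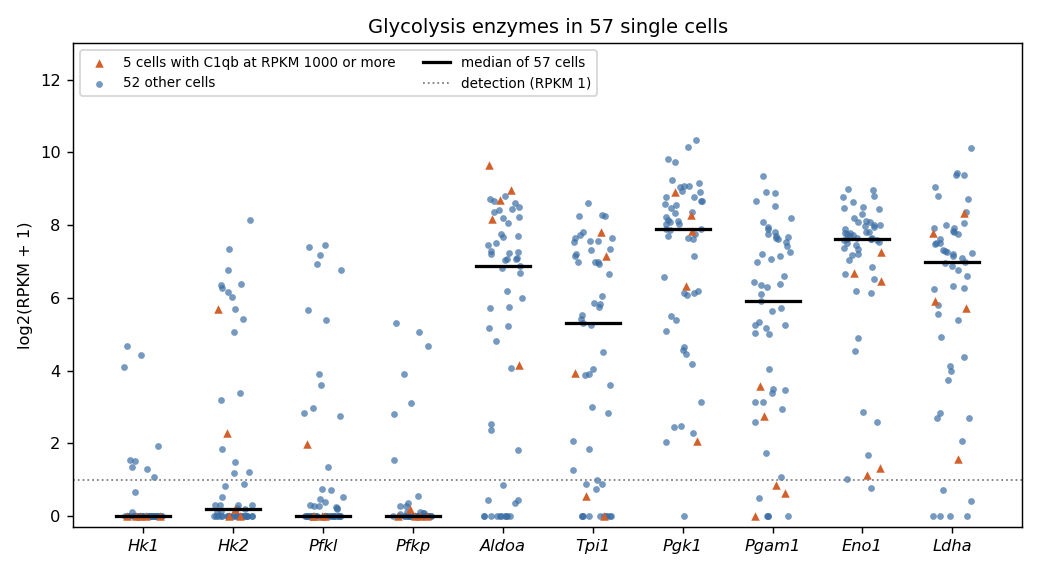
Level of each enzyme in every cell, as log2(RPKM + 1), in pathway order from left to right. Each point is 1 cell, triangles are the 5 cells with C1qb at RPKM 1000 or more, black lines are medians over 57 cells and the dotted line is the detection threshold of RPKM 1. The 4 genes on the left sit mostly at or near 0, with a few cells far above, and the 6 on the right spread over most of the scale.

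Hexokinase traps glucose in the cell as glucose 6-phosphate. Hk2 (mm9 chr6:82675021-82724448), the isozyme often raised in growing cells, had a lowest value of RPKM 0, a median of 0.131 and a highest of 284 in cell 8. It was detected in 19 cells, 33.3% (Clopper-Pearson 95% interval 21.4% to 47.1%), with a mean of 19.9 ± 48.6 RPKM (SD over 57 cells). Cells 8, 48 and 36 carried 48.8% of its summed RPKM. Hk1 (chr10:61731603-61842656), the isozyme of most adult tissues, was listed at 0 in 46 cells and reached 24.7 in cell 5. It was detected in 9 cells (15.8%, interval 7.48% to 27.9%) and averaged 1.27 ± 4.66 RPKM.

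Each isozyme was rare. Of 24 cells with a hexokinase, 15 had Hk2 alone, 5 had Hk1 alone and 4 had both, where 3.0 cells would hold both if the genes were detected independently. Hk2 was 94.0% of the summed mean hexokinase RPKM. The 3 cells highest in Hk1, cells 5, 13 and 22, had 24.7, 20.5 and 16.0 RPKM of it, and Hk2 in the same cells was at 0, 0 and 0.108 RPKM. In the other direction cells 8 and 48, highest in Hk2 at 284 and 163 RPKM, had 1.93 and 2.77 RPKM of Hk1. Leaving out single cells kept the Hk2 share between 92.3% and 96.0%.

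Hk2 is the only member in the authors' deposited table of proximal and distal classes, 1 of 10 beside 6.51% of all genes. The authors' deposited table gives it a signed fold of -8.00, lower in the proximal class. The sources used here state neither its formula nor the class of a cell, so the value was not recomputed. Across the 57 cells Hk2 had rho -0.39 with Wt1, a gene that marks podocyte precursors, and -0.46 without the 7 cells with low Pax8. Without the same 7 cells Wt1 had -0.34 with Tpi1, -0.32 with Eno1 and -0.27 with Pgam1. It had 0.11 with Aldoa, and the remaining members lay between -0.17 (Pfkp) and 0.03 (Ldha). The 28 cells of the authors' table are among the 57, so these values are not independent of its fold. Over the 57 cells Hk2 had 0.36 with Top2a, 0.33 with Pou3f3, 0.16 with Jag1 and 0.07 with Lhx1. Hk2 also had rho 0.42 with genes detected per cell and 0.35 with estimated depth, and the part of depth in these values was not tested.

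Phosphofructokinase adds the second phosphate and sets the pace of the pathway. Pfkl (chr10:77449694-77472541), the liver-type subunit, was listed at 0 in 32 cells and reached 175 RPKM in cell 3, 169 in cell 45 and 143 in cell 56. It passed the threshold in 14 cells (24.6%, interval 14.1% to 37.8%), and its mean was 15.1 ± 41.7 RPKM. Pfkp (chr13:6579120-6647970), the platelet-type subunit, was listed at 0 in 40 cells, was detected in 7 (12.3%, interval 5.08% to 23.7%) and reached 38.4 RPKM in cell 41. Its mean was 2.22 ± 7.49 RPKM.

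The muscle-type subunit Pfkm, which is no member, was detected in 13 cells with a mean of 11.0 ± 28.4 RPKM. Together the 3 genes were detected in 26 cells, 19 with a single subunit gene, 6 with a pair and 1, cell 3, with all 3 at 175 RPKM for Pfkl, 14.1 for Pfkm and 13.8 for Pfkp. Pfkl was 53.3% of the summed mean RPKM, but the median of its share within a cell was 27.3% over those 26 cells, and it was over 50% in 11. Its share of the means moved between 47.8% without cell 45 and 57.7% without cell 34, so a few cells set it. Both a hexokinase and a phosphofructokinase were detected in 12 cells and neither in 19, close to the 10.9 and 17.9 cells that independent detection would give.

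**Figure D2:**
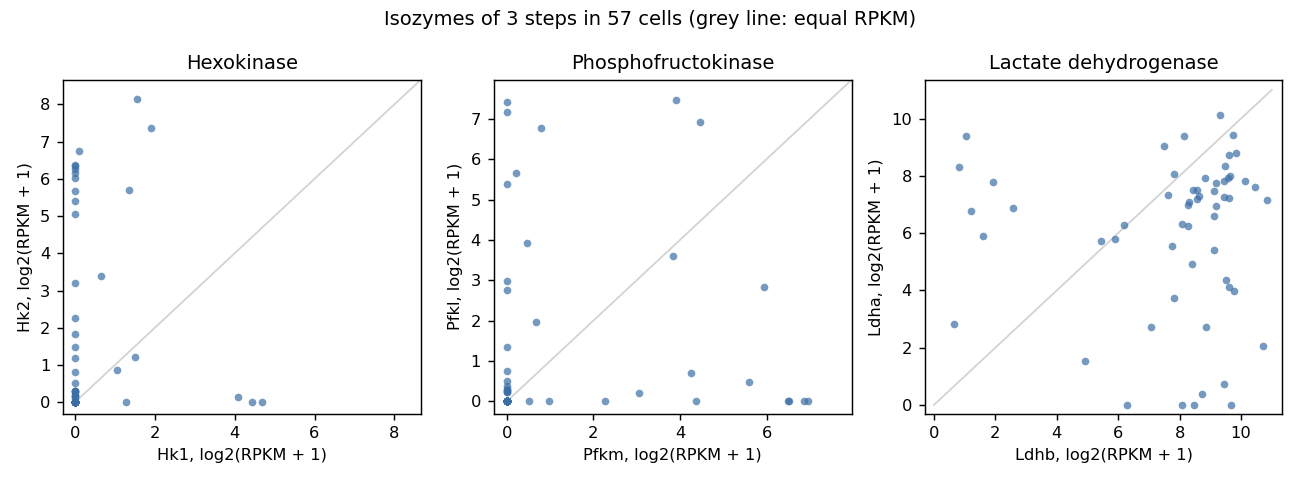
Isozyme pairs of hexokinase (Hk2 against Hk1), phosphofructokinase (Pfkl against Pfkm) and lactate dehydrogenase (Ldha against Ldhb), each point being 1 of 57 cells on log2(RPKM + 1) axes with equal RPKM as the grey line. Hexokinase and phosphofructokinase points lie mainly along the axes, while 49 cells have both lactate dehydrogenase genes detected and most lie on the Ldhb side.

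Detection means different numbers of reads for genes of different length. Low values of Hk2 fell on whole reads within 0.1 in 15 of 15 values at 15 reads or fewer, and those of Pfkl in 12 of 13, Tpi1 in 9 of 9, Pgk1 in 5 of 5, Pgam1 in 7 of 7 and Ldha in 4 of 4, with the transcript length fitted for each gene. For 4 of 10 members most or many did not, with 3 of 8 for Hk1, 2 of 11 for Pfkp, 3 of 7 for Aldoa and 4 of 7 for Eno1, and no read numbers are given for these. At the median depth, RPKM 1 corresponded to 8.10 reads for the long Hk2 transcript and 2.36 reads for Tpi1. It stands for fewer reads in shallow cells, and estimated depth was lowest in cells 30 and 52, at 472621 and 510570 reads. Eno1 counted as detected in cell 52 at 1.02 RPKM, close to the threshold. Hk2 was above 0 in 31 cells and Pfkl in 25, and in 10 of each gene's cells the value came from 1 to 3 reads. Reads of Hk2 were thus present in 12 cells below the threshold and reads of Pfkl in 11, and the genes were listed at 0 in 26 and 32 cells.

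Aldolase cleaves fructose 1,6-bisphosphate. Aldoa (chr7:133938748-133943961) varied widely. It was listed at 0 in 10 cells, its lower quartile was 2.50 RPKM, its median 116 and its upper quartile 266, and the highest value was 809 in cell 58. It was detected in 43 cells (75.4%, interval 62.2% to 85.9%), and it had a mean of 153 ± 171 RPKM. Among the 5 cells with high C1qb, Aldoa had 414, 503, 289, 16.6 and 809 RPKM in cells 1, 25, 35, 46 and 58, and 3 of these are among its 5 highest cells. Without these cells its mean was 129 ± 137 RPKM over 52 cells. Aldoc, the brain-type aldolase, was detected in 3 cells, all of which also had Aldoa, and Aldoa held 98.6% of the summed mean RPKM of the pair.

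Tpi1 interconverts the 3-carbon sugars. Tpi1 (chr6:124760610-124764314) was detected in 41 cells, the fewest of the lower enzymes (71.9%, interval 58.5% to 83.0%). It had a median of 38.7 RPKM, a highest of 388 in cell 4 and a mean of 83.9 ± 101. It was listed at 0 in 11 cells, although each cell showed other enzymes of the pathway.

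Pgk1 makes the first ATP of the pathway. Pgk1 (chrX:103382463-103399038) had the highest mean of the members, 287 ± 279 RPKM. It passed the threshold in 56 cells (98.2%, interval 90.6% to 99.96%). The median was 236 RPKM, with 1291 in cell 30 and 1132 in cell 16. It was the highest member in 23 of 57 cells, more often than any other. Its gene model has 2 copies identical over the aligned coding sequence, Gm5537 and Pgk1-rs7, so the level is uncertain to the extent that reads went to them.

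Pgam1 moves the phosphate within phosphoglycerate. Pgam1 (chr19:41986361-41993155) was present in 49 cells (86.0%, interval 74.2% to 93.7%), at a median of 59.8 RPKM, a highest of 646 in cell 5 and a mean of 117 ± 142. In the cells with high C1qb it had 5.73, 0, 11.0, 0.788 and 0.549 RPKM in cells 1, 25, 35, 46 and 58, and its median over the other 52 cells was 79.2. Without the 7 cells with Pax8 below RPKM 5 it was detected in 94.0% of 50 cells.

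Enolase makes phosphoenolpyruvate. Eno1 (chr4:149611306-149622982) was above 0 in all 57 cells, from 0.689 to 510 RPKM, with a median of 195, and it was detected in 56 (98.2%). Its mean was 194 ± 127 RPKM, and its coefficient of variation of 0.653 was the lowest of the 10 members. In the cells with high C1qb it had 1.20, 101, 151, 1.51 and 88.0 RPKM in cells 1, 25, 35, 46 and 58. Its median over the other 52 cells was 199, though its lowest value was in cell 50, outside this set. Eno3, the muscle enolase, was detected in 3 cells, and Eno1 held 99.8% of the summed mean RPKM of the pair. This share leaves out the row Gm5506, which averaged 72.6 RPKM and was detected in 53 cells. GENCODE lists it as protein coding under the name Eno1b. The levels of Gm5506 and Eno1 are uncertain, as described below, so the share of Eno1 among all enolase rows was not given.

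Lactate dehydrogenase A favours lactate production. Ldha (chr7:54101174-54110997) reached the threshold in 51 cells (89.5%, interval 78.5% to 96.0%). Its median was 127 RPKM, with 1103 in cell 44 and 0 in cells 7, 37, 52 and 53. Its mean was 175 ± 212 RPKM. Those 4 cells had 350, 77.2, 811 and 271 RPKM of Ldhb, the heart-type subunit gene. Ldhb was detected in 55 cells with a mean of 476 ± 404 RPKM, so Ldha was 26.9% of the summed means.

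The mix of both lactate dehydrogenase genes differed from cell to cell. Both were detected in 49 cells, and Ldhb was the higher in 44 cells and Ldha in 13. The share of Ldha within a cell had a median of 24.4% and quartiles of 6.85% and 44.9%. It exceeded 90% in 7 cells, and 3 of those 7 are cells 1, 25 and 58 with high C1qb, at 96.7%, 98.7% and 99.8%. The other 2 cells with high C1qb, cells 35 and 46, had 6.15% and 54.6%. Over the other 52 cells the median was 24.0%, from 0% to 99.8%, with 4 cells over 90%.

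In order of mean RPKM the members ran Pgk1, Eno1, Ldha, Aldoa, Pgam1, Tpi1, Hk2, Pfkl, Pfkp and Hk1. No neighbours in this order differed by more than the spread of their difference over cells. Pgk1 was above Eno1 in 33 cells and below it in 24, with a mean difference of 93.6 ± 312 RPKM. The widest agreement between neighbours was at the step between the lower and the upper enzymes, where Tpi1 was above Hk2 in 41 cells, below it in 7 and equal in 9. The lowest of the 6 lower enzymes was Tpi1 in 21 cells and Aldoa in 17.

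The Eno1 level moved with that of the row Gm5506 on chromosome 18, whose gene ID RefSeq names Eno1b and whose coding sequence has 8 mismatches to Eno1 over 1302 bases. Gm5506 averaged 72.6 ± 48.4 RPKM and was detected in 53 cells. Across 57 cells its rho with Eno1 was 0.995 and Pearson's r 0.994, against 0.61 for Ilf2, the next gene in line. In 50 cells with Eno1 at RPKM 10 or more, the ratio of Gm5506 to Eno1 had a median of 0.374 and quartiles of 0.359 and 0.385. Gm4735 (chr2:80678612-80678916), the closer copy by sequence, averaged 2.35 ± 2.54 RPKM, was detected in 35 cells and had rho 0.42 with Eno1. The span listed for its row is shorter than the 1302 bases compared by sequence, so its level may not be that of the whole copy. The 2 rows are therefore not a like comparison. The treatment of reads that match several places is not stated in the sources used here, so both rows and Eno1 itself are uncertain in level.

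**Figure D3:**
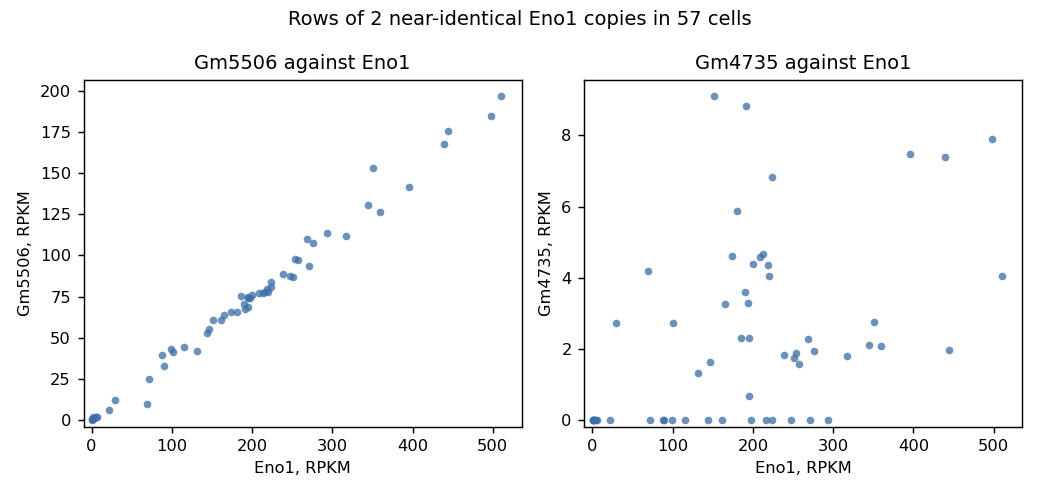
RPKM of the copies Gm5506 (left) and Gm4735 (right) against Eno1, each point being 1 of 57 cells. Gm5506 lies close to a line through the origin with a median ratio of 0.374, whereas Gm4735 stays under 10 RPKM and is at 0 in 21 cells. The span listed for the Gm4735 row is shorter than the coding sequence of Eno1.

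Correlations among the members were low. The mean of 45 pairwise Spearman correlations was 0.09, from -0.37 to 0.39, beside a mean of 0.04 over all pairs of 3377 genes detected in at least 29 cells. Hk1, Hk2, Pfkl and Pfkp were detected in fewer cells than that, so the gene sets are unlike. The values of all genes in a cell come from the same library and cells differ in depth, and in sparse values such correlations are a description. With the number of detected genes regressed out the members' mean was 0.04, and no such value is given for all genes. The highest were Pgam1 with Eno1 (0.39), Tpi1 with Eno1 (0.34) and Hk1 with Ldha (0.34). Hk1 was listed at 0 in 46 cells, and as Pearson's r on log2(RPKM + 1) its value with Ldha was 0.08. By that measure Pgam1 with Eno1 had 0.31 and Tpi1 with Eno1 had 0.34.

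Aldoa had the lowest correlations among the lower enzymes. It had rho -0.37 with Pgam1, -0.24 with Eno1, -0.13 with Tpi1, 0.02 with Pgk1 and 0.08 with Ldha, while the 10 pairs among the other 5 lower enzymes were all above 0, with a mean of 0.26. Without the 7 cells with Pax8 below RPKM 5, the values of Aldoa were -0.30 with Pgam1 and -0.14 with Eno1, and Pgk1 with Pgam1 was -0.17. Aldoa also had rho -0.34 with estimated depth, where Eno1 had 0.43, and the part of depth in these values was not tested.

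**Figure D4:**
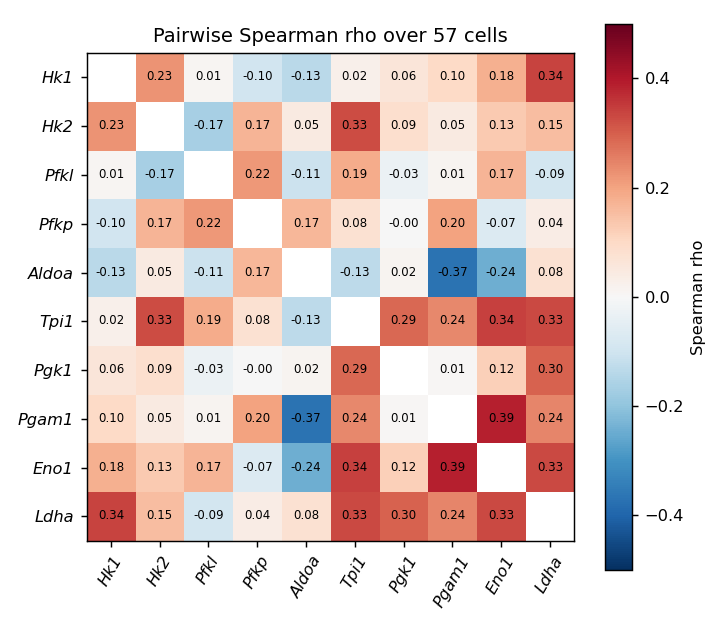
Spearman rho over 57 cells for each pair of the 10 enzymes in pathway order, red for positive and blue for negative. The block from Tpi1 to Ldha is red, from 0.01 to 0.39, and the Aldoa row is mostly blue or pale.

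**Figure D5:**
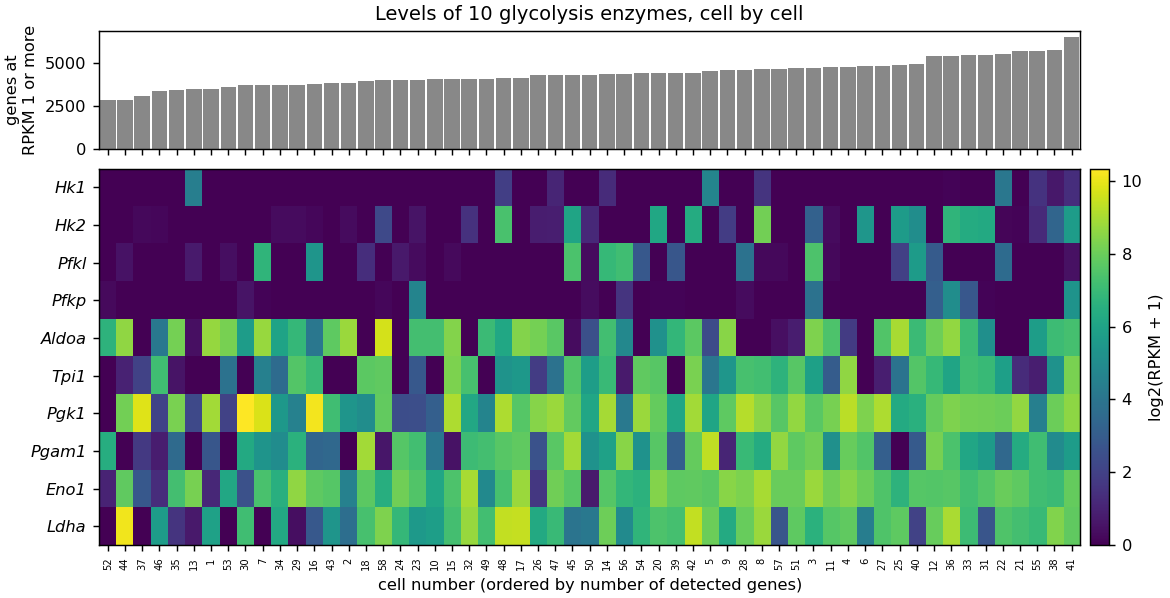
Genes detected per cell (bars, above) and log2(RPKM + 1) of the 10 enzymes (colour, below) in 57 cells ordered by detected genes. The 4 upper rows are dark in most cells, and scattered dark squares in the Aldoa, Tpi1 and Pgam1 rows mark cells where 1 enzyme was low beside high neighbours.

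Set against a trend of squared coefficient of variation on mean over 11052 genes, the members lay close to the other genes. Their median residual was 0.10 on the log10 scale, beside 0.0046 for all genes and an SD of 0.30, and 6 of 10 lay above the trend, beside 50.6% of all genes. By percentile of the residual among those genes, Ldha (82.3) and Pgk1 (81.4) varied most for their level, and Eno1 (19.0), Hk1 (24.9) and Pfkp (26.1) least.

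The genes whose ranks were most like the mean rank of the members, among 3371 others detected in at least 29 cells, were Dcp2 (rho 0.61), Ndufaf4 (0.59), Gm5506 (0.57), Seh1l (0.56), Ahcy (0.56), Timm8a1 (0.55), Hdac2 (0.54) and Lrrc40 (0.53). For single members the highest were Orc3 with Hk2 (0.61), Hdac2 with Tpi1 (0.57), Usp7 (0.56) and Nme1 (0.56) with Ldha, and Txnl4a (0.56) and Paip1 (0.55) with Pgam1. Among a fixed panel, Pgam1 had rho 0.53 with the Notch ligand gene Jag1, which was 0.36 without the 7 cells with low Pax8. Rrm2, a subunit of ribonucleotide reductase made in S phase, had rho 0.45 with Ldha and 0.40 with Pgk1. Without the 7 cells with low Pax8 these were 0.35 and 0.36. The panel's other proliferation genes were lower over 57 cells, Top2a with 0.25 and Mki67 with 0.30 for Ldha, and 0.25 and 0.23 for Pgk1. Ldha also had rho 0.40 with genes detected per cell, and the part of depth was not tested.

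Beside the members, 61 of 91 listed genes of connected pathways had values, and 17 were detected in at least 29 cells, 27.9% beside 28.0% of all 12087 genes. The other steps of glycolysis with values were detected in 3 to 57 cells, 4 of 8 in at least 29. Gapdh, which oxidises glyceraldehyde 3-phosphate, was detected in all 57 cells with a mean of 1333 ± 622 RPKM and a lowest value of 259. Pyruvate kinase, under the symbol Pkm2, was detected in 55 cells with 262 ± 218 RPKM, and Gpi1, glucose phosphate isomerase, in 45 with 66.1 ± 77.4 RPKM. Transporters were unequal. Bsg, the chaperone of lactate transporters, was detected in 56 cells, the lactate transporter Slc16a1 in 23 and the glucose transporter Slc2a1 in 6, 1 of 8 transport genes passing 29 cells.

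Genes for pyruvate entry to mitochondria passed 29 cells in 6 of 8 cases, with Pdhb, a pyruvate dehydrogenase subunit, in 48. Of 9 regulators of flux none did, and Pgm1 was the most frequent at 25 cells. Of 8 pentose phosphate genes 2 did, Taldo1 in 41 cells and Pgls in 35. Neither of the 2 gluconeogenesis genes with values did, G6pc3 being detected in 14 cells and Pck2 in 10. Among 14 hypoxia response genes 3 did, Bnip3l in 51, Hif1a in 34 and Vegfa in 32, and of 4 growth transcription factors Mycn alone did, in 34 cells with a mean of 48.8 ± 73.9 RPKM.

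Hypoxia-inducible factors bind DNA elements with the letters ACGTG, and glycolysis genes are classic targets. Windows of 250 bases before to 50 after the first listed start (RefSeq, GRCm38.p6, all 10 members matched) held ACGTG on either strand for 4 of 10 members, Hk2, Pgk1, Pgam1 and Ldha, beside 19.7% of 27025 genes. The choice of start mattered. Over every listed start 7 of 16 member windows held it, beside 19.6% of 32851. Start 2 of Hk1 had 2 matches, starts 2 and 3 of Aldoa 1 each, and start 2 of Ldha 0. The windows of Ldha and Pgk1 are shown with the motif in capitals, Ldha because it holds the most matches and Pgk1 because it has the highest mean level. Overlapping matches were counted on each strand, so a CACGTG counts on both, and Ldha had 5 matches with 2 CACGTG, while Pgk1 had 2 matches. A match of letters is a description and not a site. The plus strand windows, on a build other than that of the table, are chr7:46845554-46845853 for Ldha and chrX:106186850-106187149 for Pgk1.

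Ldha promoter: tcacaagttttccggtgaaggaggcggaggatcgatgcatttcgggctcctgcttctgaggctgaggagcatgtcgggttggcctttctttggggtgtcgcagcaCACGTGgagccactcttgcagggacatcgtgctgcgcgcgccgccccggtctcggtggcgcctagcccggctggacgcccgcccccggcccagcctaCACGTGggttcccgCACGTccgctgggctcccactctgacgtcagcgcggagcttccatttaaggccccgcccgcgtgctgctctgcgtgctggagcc

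Pgk1 promoter: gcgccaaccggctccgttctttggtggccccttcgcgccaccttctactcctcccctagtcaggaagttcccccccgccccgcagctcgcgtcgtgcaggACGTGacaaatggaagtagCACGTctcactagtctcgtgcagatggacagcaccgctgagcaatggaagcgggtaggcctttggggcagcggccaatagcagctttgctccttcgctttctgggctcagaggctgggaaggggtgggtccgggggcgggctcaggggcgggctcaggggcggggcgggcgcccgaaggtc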

How the data were processed

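The authors deposited RPKM values of 12087 genes in 57 cells, not logged. The submitters' processing notes name build mm9, TopHat 1.4.1 and DESeq without their roles. Their column of cells above RPKM 3 equalled the values in 12087 genes and was never below 2. A smaller table holds the authors' deposited signed fold (a score, positive where the proximal class was higher) for 787 genes in 28 cells. No column of per-cell values was left unused, and 1 header ID differs from the labels, so cells were matched by number.

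RPKM was used as deposited, with detection at RPKM 1. Intervals are exact Clopper-Pearson at 95% and cover the sampling of cells alone. No p-value was computed, because the 57 cells form 1 group. Reads per cell were estimated from the value of a single read in 4374 genes with 1 GENCODE M21 transcript. Variability was the residual of the log10 squared coefficient of variation from a lowess fit on mean RPKM (span 0.3) among genes with mean RPKM 1 or more. Genes with a repeated symbol (46 rows) were left out of fits across genes. The scripts were tested on simulated data.

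The members and lists were chosen with earlier results of these data known. Named genes are all members, isozymes and neighbouring steps, the listed pathway genes, a fixed panel, the 8 genes most like the members' mean rank and up to 2 per member, and copies. Copies were sought with BLAST 2.17.0 in GENCODE M21 (GRCm38) for sequence only, a search added after the files were seen, since the planned gene descriptions were not used here. Other pathway genes that had no value were not analysed here. Versions were Python 3.11.15, numpy 2.4.6, pandas 2.3.3, scipy 1.17.1 and statsmodels 0.14.6.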

Additional observations from a re-analysis of the deposited data

How the results depend on the processing

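Under other settings (detection above 0 or at RPKM 5, rescaling each cell to the same sum, other measures of correlation and trend, and leaving out the 5 cells with high C1qb or the 7 with Pax8 below RPKM 5), 9 summary results were recomputed. Of these 37 recomputed values 36 stayed within their spread or within 1.5 times of the count, and none changed sign. A wide spread allowed large shifts. The Pfkl share counted as unmoved, although it was 53.3% of the summed means and 27.3% as the median within a cell (SD 46.1%). Which subunit gene leads thus depended on the measure. The exception was the list of genes most like the members, of which 4 of 8 were shared under Pearson's r on log2(RPKM + 1), so those names depend on the measure, and the cause was not tested. The number of members detected in at least 29 cells was 6, and 7 with detection above 0, where Hk2 passed at 54.4% of cells. The share of all 12087 genes, 28.0%, was counted at RPKM 1 only. The count of 7 thus has no such share beside it and cannot be read as a trait of the members. Of 70 recomputed values of single members, 8 moved beyond their interval or spread. The mean pairwise rho ranged from 0.04 with detected genes regressed out to 0.11 with Pearson's r. No paired analysis was possible because the cells form 1 group and no test was made. At the median depth RPKM 1 is 2.36 reads for Tpi1 and 8.10 for Hk2, so the threshold is not the same number of reads for every gene. No molecular identifiers were used, and intervals cover counting of cells only.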
